A study of Rattus norvegicus with 12 samples.

Results

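The Wnt genes analysed here are 10 genes tied to the growth of mammary ducts: the ligands Wnt2, Wnt4, Wnt5a, Wnt6 and Wnt11, the nuclear factor Lef1, the feedback inhibitor Axin2, and the secreted modulators Sfrp1, Sfrp2 and Dkk3. They were chosen by name, and 9 of the 10 matched at least 1 probe, out of 26456 gene names on the array. The expression of Wnt2 was not analysed here, since no probe of that name matched.

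Lumbar mammary tissue of female Wistar rats was profiled on 12 arrays of 1 colour, 1 rat per array. Dams of the low protein group (LP) received a diet with 8.8% protein and those of the normal protein group (NP) one with 17.0%, both at 25 g/d, and litters were set to 6 females. Per the methods, these diets were given during pregnancy, and the mothers received standard chow during lactation. Offspring were sampled at day 21 or day 28 of life, with 3 rats in each of the 4 groups NP day 21, LP day 21, NP day 28 and LP day 28. Visible lymph nodes had been taken out of the tissue, per the methods. How the rats of a group were spread over litters is not given in the sources used here, so the p-values measure the spread between these rats. The comparisons ask whether maternal protein supply goes with other Wnt gene levels in the offspring, and how those levels differ between the days.

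Wnt ligands are secreted proteins that bind Frizzled receptors together with Lrp or other co-receptors. In the canonical branch this keeps beta-catenin from being degraded, and beta-catenin then joins Tcf and Lef proteins on target genes such as Axin2. Wnt5a and Wnt11 are best known for signalling without beta-catenin. In the mammary gland Wnt4 is made by luminal cells and acts downstream of progesterone in side branching, Wnt5a restrains duct extension, and Lef1 is needed for the first mammary buds of the embryo.

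A level is given as the log2 of the processed probe signal minus the 75th percentile of its array, so that 0 is the signal of the 75th percentile and a difference of 1 is a doubling. That percentile lay between 1451.4 and 2369.6 signal units over the arrays, the share of spots well above background was 74.8 to 79.6%, and saturation was seen for 0 spots. Levels of different probes are not comparable with each other, so a gene named for the highest signal of its list has the highest probe signal and not the most RNA. All 9 genes had a probe well above background on all 12 arrays. Differences were tested with limma over 23209 probes, and adjusted p refers to the Benjamini-Hochberg method over all of these.

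LP replicate 6a of day 21 stood apart from the other arrays. Its median correlation with the others was 0.960, against 0.974 or more for every other array, and it lay at 115 on the first principal component, which carried 33.4% of the variance. On this array the T cell markers averaged -5.66, against -0.41 to 0.83 on the other 11, and their summed level was 0.300 times the 75th percentile signal, against 10.4 to 25.7. Only 4 of 7 T cell markers were well above background there, with Cd3e, Cd2 and Cd5 not, and Cd3d had the highest signal. B cell markers averaged -6.44 on it, against -1.65 to -0.11, with Ms4a1 and Cr2 not well above background. The same array had the highest mean of luminal markers, 2.32, against 0.17 to 1.60 on the other 11. Its mean of basal markers was also the highest, 0.06, against -2.69 to -0.73. So were those of skeletal muscle markers, 3.33, against -4.83 to 2.93, and of skin epidermis markers, -2.57, against -7.87 to -3.43.

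NP replicate 4f of day 28 was the next most distant array, at -61.4 on the first component. It had the lowest mean of luminal markers, 0.17, of basal markers, -2.69, and of hormone axis genes, -5.36. Differences that moved by more than 1.5 times without either array are given with and without it for the diet comparisons of each day. All 8 luminal markers were well above background on all 12 arrays and all 6 basal markers on 11, Oxtr missing on NP replicate 4f of day 28.

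At day 21 no Wnt gene passed the test between the diets. With limma 0 of 9 had an adjusted p under 0.05, as did 0% of all probes tested, and 0 of 9 had an unadjusted p under 0.05, beside 4.36% of all probes. The diets were fully separate, with no overlap of arrays, for 0 of 9 genes, beside 11.5% of probes. The difference was above 0 for 5 genes and below 0 for 4, with a median of 0.11 on the log2 scale, against 0.01 over all probes tested.

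At day 28 Wnt4 was higher in LP rats and Wnt11 lower, both at an unadjusted p only. With limma 0 of 9 genes had an adjusted p under 0.05, as did 0% of all probes, while 2 of 9 had an unadjusted p under 0.05, beside 8.07% of all probes. The arrays of LP and NP did not overlap for 4 of 9 genes, beside 16.8% of probes: Wnt4 was higher in all LP arrays, and Wnt6, Wnt11 and Lef1 were lower. The median difference of the 9 genes was -0.16, against -0.05 over all probes. Counts over 9 genes are small, and nothing particular to the Wnt genes is drawn from them.

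**Figure D1:**
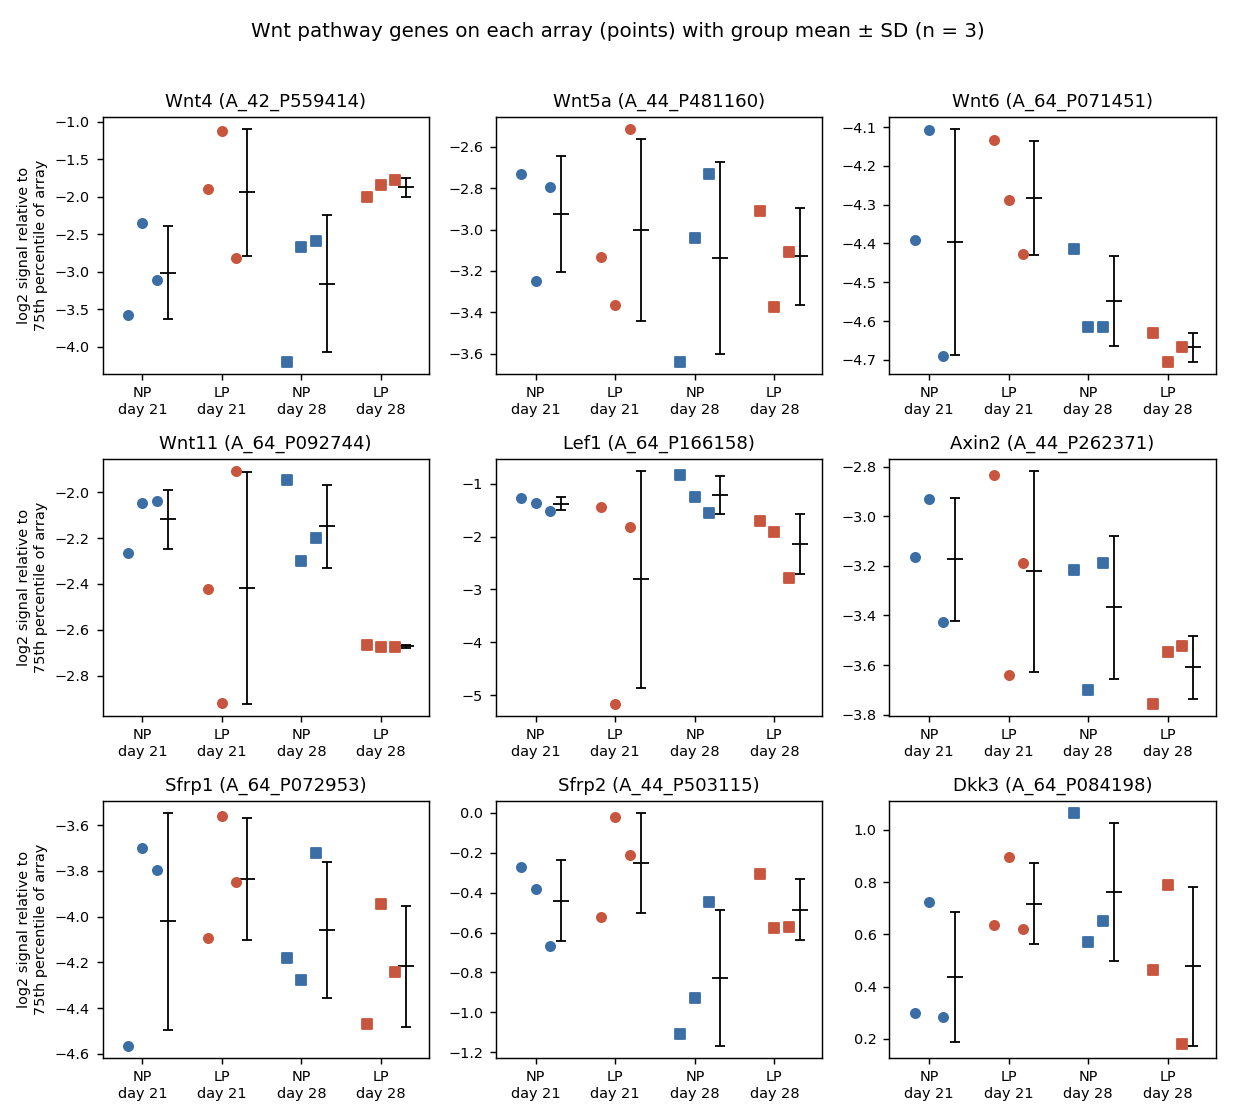
Each panel plots the log2 signal of 1 gene relative to the 75th percentile of the array, with 1 point per array, blue for NP and red for LP, circles for day 21 and squares for day 28, and bars for the group mean ± SD (n = 3). At day 28 the LP arrays of Wnt4 lie between -2.01 and -1.77, above all NP arrays, those of Wnt11 lie between -2.68 and -2.67, below all NP arrays, and the LP array of day 21 at -5.17 sets the spread of Lef1.

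Wnt4, the ligand of progesterone-driven side branching, was read by 1 probe on chromosome 5 (A_42_P559414, rn4 156082786 to 156082845). At day 21 its levels were -3.58, -2.36 and -3.11 in NP replicates 4a, 5a and 6a. The LP levels of that day were -1.89, -1.12 and -2.82 in replicates 4a, 6a and 7c. LP replicate 7c fell inside the NP range, so the groups overlapped, and LP replicate 6a was the highest of all 12 arrays. The day 21 difference was 1.07 (SE 0.52), a 2.10-fold higher mean in LP (limma adjusted p = 0.861).

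At day 28 Wnt4 stood at -4.21, -2.68 and -2.60 in NP replicates 4f, 5f and 6f. It stood at -2.01, -1.85 and -1.77 in LP replicates 4f, 6f and 7f. All 3 LP arrays were above all 3 NP arrays, with an SD of 0.12 in LP and 0.91 in NP (n = 3), the NP spread coming from replicate 4f. The difference was 1.28 (SE 0.52, 95% interval 0.13 to 2.43), a 2.43-fold higher mean in LP (limma adjusted p = 0.581). The study had itself listed Wnt4 from these samples at the later age, so its direction there is not independent evidence. Without NP replicate 4f the day 28 difference was 0.76 (limma adjusted p = 0.870), and with slide row as a covariate it was 1.24 (limma adjusted p = 0.946).

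Without LP replicate 6a the Wnt4 difference at day 21 was 0.66 (limma adjusted p = 1). Leaving out NP replicate 4f of day 28, which changes only the pooled spread there, brought the unchanged day 21 difference past an unadjusted p of 0.05, with limma adjusted p = 0.709. So did normexp and the fits without NP replicate 5a (1.40) or LP replicate 7c (1.51) of day 21, with limma adjusted p from 0.574 to 0.985. The replicate number used as a block also gave this unadjusted call at day 21 (limma adjusted p = 0.381). Wnt4 at day 28 lost its unadjusted call in 4 of the 12 fits that left out 1 array, those without NP replicate 4f or any of the 3 LP arrays of that day. The diet difference of Wnt4 at day 28 exceeded that at day 21 by 0.21 (SE 0.73, limma adjusted p = 1), so the days were not shown to differ.

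Wnt4 levels ran with the epithelial markers across arrays. Over the 12 arrays, which come from 4 groups on 2 slides, Pearson's r of Wnt4 was 0.941 with the mean of the luminal markers, 0.939 with that of the basal markers and 0.818 with that of the hormone axis genes. Without LP replicate 6a of day 21, a check added after the values were seen, the same r values were 0.923, 0.917 and 0.908 over 11 arrays. These are the highest 3 of the 13 marker lists set against Wnt4, out of 117 such values for the 9 genes, and are descriptions only. In bulk tissue fewer cells of a type and less RNA per cell cannot be told apart.

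By gene counts and medians the epithelial lists themselves leaned to LP. The luminal list was higher in LP for 8 of 8 genes on each day, with a median difference of 0.79 at day 21 and 0.58 at day 28, while limma gave 0 genes an adjusted p under 0.05, and 2 and 0 genes an unadjusted p under 0.05. At day 21 the summed luminal level was 16.1, 31.8 and 16.2 in NP replicates 4a, 5a and 6a, and 36.7, 60.4 and 21.2 in LP replicates 4a, 6a and 7c. At day 28 it was 14.3, 30.1 and 28.3 in NP replicates 4f, 5f and 6f, and 35.1, 36.5 and 32.3 in LP replicates 4f, 6f and 7f. Krt18 had the highest signal of the luminal list on all 12 arrays. Basal markers were higher in LP for 5 of 6 genes on each day, with medians of 0.89 and 0.86, summed levels of 4.31 to 8.84 over all arrays and Tp63 the highest signal on all 12. Limma gave 0 and 1 basal genes an unadjusted p under 0.05, and 0 an adjusted p under 0.05. The gene lower in LP at day 28 was Tp63, at 2.07, 2.37 and 1.90 in NP replicates 4f, 5f and 6f. Its levels in LP replicates 4f, 6f and 7f were 1.76, 1.73 and 1.66. The summed basal level at day 28 was 4.84, 7.22 and 5.86 in NP replicates 4f, 5f and 6f. In LP replicates 4f, 6f and 7f it was 5.68, 6.32 and 5.52, all inside the NP range. Hormone axis genes were higher in LP for 4 of 5 genes on each day, with medians of 0.70 and 0.87, summed levels of 0.179 to 1.84 and Areg the highest signal on 10 arrays. With LP replicate 6a left out, the day 21 medians were 0.47 for the luminal, 0.44 for the basal and 0.11 for the hormone axis list. Without NP replicate 4f the day 28 medians were 0.25, 0.10 and 0.39, with 7 of 8, 3 of 6 and 4 of 5 genes higher in LP. The part of these lists in the Wnt4 result was not tested.

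**Figure D2:**
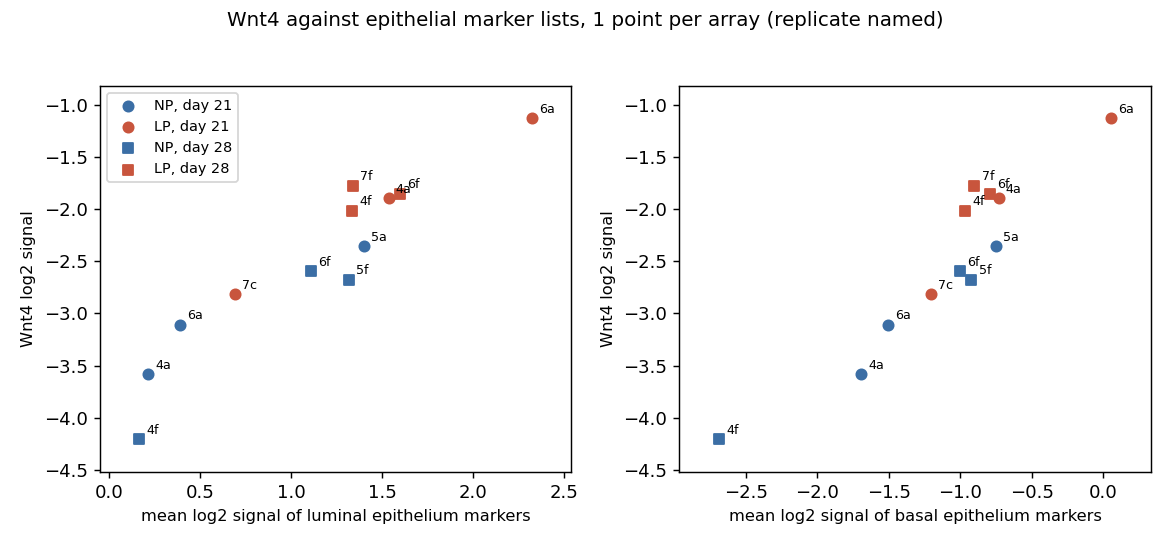
Each point is 1 of 12 arrays, with the mean log2 signal of the luminal markers (left) or basal markers (right) on the horizontal axis and the log2 signal of Wnt4 on the vertical axis, blue for NP, red for LP, circles for day 21, squares for day 28 and the replicate named beside each point. The arrays line up from NP replicate 4f of day 28, lowest in all of these at -4.21 for Wnt4, to LP replicate 6a of day 21, highest in all of these at -1.12.

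Among all other genes the pattern most like Wnt4 was that of Prlr, the prolactin receptor, with r = 0.991 over 12 arrays and 0.988 over the 11 without LP replicate 6a. Prlr is also on the hormone axis list. The likeness was looked up among 14966 named probes well above background on all arrays.

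Wnt11, a ligand of beta-catenin-independent signalling, was read by 2 probes on chromosome 1 (A_64_P092744, rn4 156141221 to 156141280, and A_64_P082749, rn4 156140983 to 156141042). By the described probe, A_64_P092744, the levels at day 28 were -1.95, -2.30 and -2.20 in NP replicates 4f, 5f and 6f. In LP replicates 4f, 6f and 7f they were -2.67, -2.67 and -2.68. All 3 LP arrays were below all 3 NP arrays and lay almost on each other. The difference was -0.52 (SE 0.21, 95% interval -1.001 to -0.0453), a 1.44-fold lower mean in LP (limma adjusted p = 0.581). The other Wnt11 probe gave -0.54 (SE 0.22, limma adjusted p = 0.581), again with all LP arrays lower.

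At day 21 Wnt11 stood at -2.27, -2.05 and -2.04 in NP replicates 4a, 5a and 6a. The LP levels were -2.42, -2.92 and -1.91 in replicates 4a, 6a and 7c. LP replicate 6a was the lowest of all arrays and LP replicate 7c the highest, so the LP group spanned the NP group. The difference was -0.30 (SE 0.21, limma adjusted p = 0.862), and -0.05 without LP replicate 6a (limma adjusted p = 1). Without LP replicate 7c it was -0.56 and gained an unadjusted call (limma adjusted p = 0.574).

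The unadjusted call of Wnt11 at day 28 was lost in 5 of the 12 fits that left out 1 array, those without NP replicate 4f or 6f or any of the 3 LP arrays of that day, and under normexp background correction, at -0.35 (limma adjusted p = 0.696), and with the row on the slide as a covariate. Without NP replicate 4f the difference was -0.42 (limma adjusted p = 0.869), and with the row on the slide as a covariate it was -0.52 (limma adjusted p = 0.946). Without LP replicate 6a of day 21, which lowers the pooled spread, the limma adjusted p was 0.420 for either probe, and the SE of the described probe 0.15. The diet difference of Wnt11 changed between the days by -0.22 (SE 0.30, limma adjusted p = 1). Of the marker lists, Wnt11 ran closest with the endothelium list, with r = 0.793 over 12 arrays and 0.868 without LP replicate 6a. It ran against the luminal and basal lists, with r = -0.766 and -0.670, and -0.654 and -0.529 without that array. The part of these 2 lists was not tested. The summed endothelium level at day 28 was 25.0, 16.3 and 17.4 in NP replicates 4f, 5f and 6f. It was 18.6, 15.9 and 13.4 in LP replicates 4f, 6f and 7f, so the diets overlapped. Endothelium markers were lower in LP for 4 of 5 genes on each day, with medians of -0.05 at day 21, 0.0035 without LP replicate 6a, and -0.29 at day 28, -0.09 without NP replicate 4f, summed levels of 13.4 to 25.0 and Kdr the highest signal on all 12 arrays, and their part in the Wnt11 result was not tested. The gene most like Wnt11 was Fam110d (r = 0.944 over 12 arrays).

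Wnt6, a ligand of the epithelium in many organs, was read by 1 probe (A_64_P071451, chromosome 9, rn4 74117575 to 74117634). Its levels at day 28 were -4.41, -4.62 and -4.62 in NP replicates 4f, 5f and 6f and -4.63, -4.71 and -4.67 in LP replicates 4f, 6f and 7f. All LP arrays were below all NP arrays, yet the nearest arrays of the groups were almost level. The difference was -0.12 (SE 0.15, limma adjusted p = 0.748), and -0.05 without NP replicate 4f (limma adjusted p = 0.965). At day 21 it was 0.11 (SE 0.15, limma adjusted p = 0.927), with overlapping groups. Its own diet difference changed by -0.23 between the days (SE 0.21, limma adjusted p = 1).

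Wnt5a, which restrains duct extension, was read by 1 probe (A_44_P481160, chromosome 16, rn4 3799337 to 3799396). Its 12 levels ran from -3.64, in NP replicate 4f of day 28, to -2.51, in LP replicate 7c of day 21. The groups overlapped on both days, with diet differences of -0.08 at day 21 (SE 0.28, limma adjusted p = 0.977) and 0.01 at day 28 (SE 0.28, limma adjusted p = 0.993). The 95% intervals, -0.70 to 0.54 and -0.61 to 0.63, still allow differences of the size seen for Wnt11. The day 21 value turned to 0.10 without LP replicate 6a, and the day 28 value to -0.24 without NP replicate 4f and to -0.01 under quantile normalisation.

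Lef1, a nuclear partner of beta-catenin that is also made by T cells and early B cells, was read by 3 probes on chromosome 2. The described probe (A_64_P166158, rn4 228659730 to 228659789) carries the name Lef1 in the files but was not matched to RefSeq, while the other 2 were. By it the day 21 levels were -1.27, -1.36 and -1.51 in NP replicates 4a, 5a and 6a. In LP replicates 4a, 6a and 7c they were -1.43, -5.17 and -1.83. LP replicate 6a was far below every other array, LP replicate 4a lay inside the NP range and LP replicate 7c below it. The difference of -1.43 (SE 0.79, limma adjusted p = 0.861) shrank to -0.25 without that array (SE 0.31, limma adjusted p = 1). Without LP replicate 4a it was -2.12 and gained an unadjusted call (limma adjusted p = 0.550). The other Lef1 probes read -8.80 and -7.63 on LP replicate 6a and were not well above background there, while both were well above it on the other 11 arrays.

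At day 28 Lef1 stood at -0.84, -1.25 and -1.56 in NP replicates 4f, 5f and 6f. It stood at -1.71, -1.92 and -2.78 in LP replicates 4f, 6f and 7f. All LP arrays were lower than all NP arrays, with replicate 7f lowest. The difference was -0.92 (SE 0.79, limma adjusted p = 0.650), a 1.89-fold lower mean in LP. Since the pooled spread held LP replicate 6a of day 21, the same difference had SE 0.28 without that array and gained an unadjusted call (limma adjusted p = 0.420), as it did with only the arrays of that day fitted (limma adjusted p = 0.627). The other Lef1 probes gave day 28 differences of -1.08 and -0.87, all LP arrays lower in each. With the row on the slide as a covariate the Lef1 difference at day 28 was -0.02 (limma adjusted p = 0.999). With LP replicate 6a of day 21 also left out, an alternative chosen after seeing the data, it was -0.56, Wnt4 1.47 and Wnt11 -0.67 (limma adjusted p = 0.787 for each), of which Wnt4 and Wnt11 had an unadjusted p under 0.05. All NP arrays sat in row 1, and on each day 1 LP array sat in row 1 and 2 sat in row 2.

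Lef1 ran with the lymphocyte markers from array to array. Pearson's r was 0.968 with the mean of the T cell markers and 0.968 with that of the B cell markers over 12 arrays, and 0.987 and 0.847 over the 11 without LP replicate 6a of day 21. T cell markers were lower in LP for 7 of 7 genes on both days, with medians of -2.30 at day 21 and -0.59 at day 28, and B cell markers for 5 of 5, with medians of -2.11 and -0.62. Leaving out LP replicate 6a, the day 21 medians were -0.22 for the T cell list, 7 of 7 lower, and -0.49 for the B cell list, 4 of 5 lower. With limma over all arrays 0 genes of either list had an adjusted or an unadjusted p under 0.05. Without LP replicate 6a of day 21, limma gave an unadjusted p under 0.05 at day 28 to 7 of 7 T cell genes. The B cell list then had 2 of 5 at day 28, beside 2547 of 23209 probes. In that fit 0 genes of either list had an adjusted p under 0.05.

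The summed T cell level at day 21 was 20.5, 18.9 and 18.4 in NP replicates 4a, 5a and 6a and 18.1, 0.300 and 15.2 in LP replicates 4a, 6a and 7c. At day 28 it was 25.7, 24.2 and 18.8 in NP replicates 4f, 5f and 6f and 17.6, 16.3 and 10.4 in LP replicates 4f, 6f and 7f. The order of the day 28 arrays in this sum was the order of their Lef1 levels. Cd3d had the highest signal of the T cell list on all 12 arrays, and all markers of the T cell and B cell lists were well above background on the 11 arrays other than LP replicate 6a. The part of lymphocyte RNA in the Lef1 result was not tested. The gene most like Lef1 was S1pr4, a receptor of blood cells, with r = 0.995 over 12 arrays and 0.974 over 11.

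**Figure D3:**
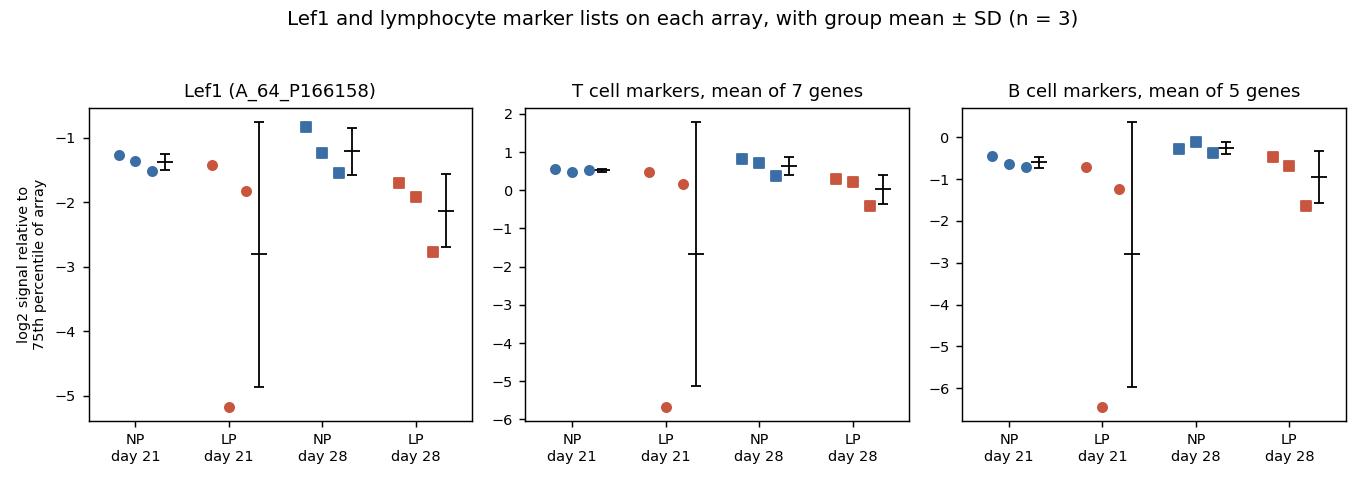
The panels plot Lef1 (left), the mean of 7 T cell markers (middle) and the mean of 5 B cell markers (right) as log2 signal relative to the 75th percentile of each array, with 1 point per array, blue for NP, red for LP, circles for day 21, squares for day 28 and bars for the group mean ± SD (n = 3). LP replicate 6a of day 21 is lowest in all 3 panels, at -5.17, -5.66 and -6.44, and LP replicate 7f of day 28 is next lowest in each.

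The described Lef1 probe and a further one overlap on the genome, so they are not independent readings. They share 52 positions, of which 48 are equal and 4 differ. The differing bases, counted from 1 at the first base of A_64_P166158, are A19G, C40T, G46T and C52G, with the base of A_64_P166158 first, and which of them is the reference was not determined. Both sequences are shown since the overlap bears on how many separate readings of Lef1 there are, with capitals at the differing bases. The remaining Lef1 probe, A_64_P052010 (rn4 228668698 to 228668757), does not overlap them.
A_64_P166158: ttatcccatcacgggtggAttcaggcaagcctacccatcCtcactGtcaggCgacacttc
A_64_P052007: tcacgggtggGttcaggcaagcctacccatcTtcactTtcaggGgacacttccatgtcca

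Axin2, a target of beta-catenin that feeds back on it, was read by 1 probe (A_44_P262371, chromosome 10, rn4 98321105 to 98321164). Its day 21 levels were -3.17, -2.93 and -3.43 in NP replicates 4a, 5a and 6a and -2.83, -3.64 and -3.19 in LP replicates 4a, 6a and 7c. At day 28 they were -3.22, -3.70 and -3.19 in NP replicates 4f, 5f and 6f and -3.76, -3.55 and -3.52 in LP replicates 4f, 6f and 7f. The groups overlapped on both days. The diet difference was -0.05 at day 21 (SE 0.22, limma adjusted p = 0.981) and turned to 0.16 without LP replicate 6a, 0.02 under normexp background correction, where the median of all probes was 0.05, and 0.07 with the row as a covariate. At day 28 it was -0.24 (SE 0.22, limma adjusted p = 0.665). Axin2 ran most closely with 1 of the 4 probes of Cd44 (r = 0.920 over 12 arrays), a gene on the list of known Wnt targets, where another of its probes is used.

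Sfrp1, a secreted protein that binds Wnt ligands, was read by 1 probe (A_64_P072953, chromosome 16, rn4 73030329 to 73030388). Sfrp1 is named so on the array, and its probe was not matched to RefSeq. Its 12 levels ran from -4.57 to -3.56, and the groups overlapped on both days. The diet difference was 0.19 at day 21 (SE 0.26, limma adjusted p = 0.931) and -0.16 at day 28 (SE 0.26, limma adjusted p = 0.812). The day 21 difference without LP replicate 6a was 0.05 (limma adjusted p = 1). The day 21 direction turned to -0.07 with the row as a covariate, and the day 28 value was 0 under normexp background correction.

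Sfrp2, of the same family, was read by 1 probe (A_44_P503115, chromosome 2, rn4 175486729 to 175486788). At day 28 its levels were -1.11, -0.93 and -0.45 in NP replicates 4f, 5f and 6f and -0.31, -0.58 and -0.57 in LP replicates 4f, 6f and 7f. NP replicate 6f lay within the LP range. The diet difference was 0.34 at day 28 (SE 0.19, limma adjusted p = 0.581) and 0.19 at day 21 (SE 0.19, limma adjusted p = 0.905). Without NP replicate 4f the day 28 difference was 0.20 (limma adjusted p = 0.892), and without LP replicate 6a the day 21 difference was 0.07 (limma adjusted p = 1). The day 28 difference gained an unadjusted call at 0.53 without NP replicate 6f (limma adjusted p = 0.316) and at 0.52 under normexp (limma adjusted p = 0.696).

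Dkk3, a member of the Dickkopf family of secreted proteins, was read by 1 probe (A_64_P084198, chromosome 1, rn4 169924663 to 169924722). At day 21 its levels were 0.30, 0.72 and 0.29 in NP replicates 4a, 5a and 6a and 0.64, 0.90 and 0.62 in LP replicates 4a, 6a and 7c. At day 28 they were 1.07, 0.57 and 0.65 in NP replicates 4f, 5f and 6f and 0.46, 0.79 and 0.18 in LP replicates 4f, 6f and 7f. The diet difference was above 0 at day 21 and below 0 at day 28, with overlapping groups on both days. It was 0.28 at day 21 (SE 0.20, limma adjusted p = 0.862) and -0.28 at day 28 (SE 0.20, limma adjusted p = 0.596). The day 28 difference without NP replicate 4f was -0.13 (limma adjusted p = 0.932). The change between the days, -0.56 (SE 0.28), had the lowest p of the 9 genes in that comparison (limma adjusted p = 1), and gained an unadjusted call without NP replicate 5a of day 21 (-0.71) or LP replicate 6f of day 28 (-0.72).

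Over all 9 genes the change of the diet difference from day 21 to day 28 passed the limma test for none. Of these 0 had an adjusted p under 0.05, beside 0% of probes, and 0 an unadjusted p under 0.05, beside 2.26% of probes. The median change was -0.19, against -0.04 over all probes.

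For the days, NP rats gave 0 of 9 Wnt genes with an adjusted p under 0.05 by limma, beside 0.25% of probes, and 0 of 9 with an unadjusted p under 0.05, beside 12.8% of probes. Arrays of the days did not overlap for 0 of 9 genes, beside 18.7% of probes. LP rats gave 0 of 9 with an adjusted p under 0.05, beside 0% of probes, and 1 of 9, Wnt6, with an unadjusted p under 0.05, beside 10.1% of probes, and the arrays did not overlap for that gene alone, beside 18.7% of probes. Each day was hybridised on its own slide, so day and slide cannot be told apart. The methods place weaning to standard chow at day 21, so day and time since weaning cannot be told apart either. The day comparisons share arrays with the diet comparisons.

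Wnt6 was lower at day 28 than at day 21 in LP rats, where all 3 arrays of day 28 lay below all 3 of day 21. The day 21 levels were -4.13, -4.29 and -4.43 in LP replicates 4a, 6a and 7c, above the day 28 range of -4.71 to -4.63. The difference was -0.39 (SE 0.15, limma adjusted p = 0.424), and the NP difference was -0.15 (SE 0.15, limma adjusted p = 0.701), with NP levels of -4.39, -4.11 and -4.69 in replicates 4a, 5a and 6a of day 21. Without LP replicate 4a of day 21 the LP difference was -0.31 (limma adjusted p = 0.577), and the unadjusted call was also lost without LP replicate 6f or 7f of day 28.

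With the diets averaged, 0 of 9 Wnt genes had an adjusted p under 0.05 between the days by limma, beside 1.81% of probes. At an unadjusted p under 0.05 there were 2 of 9, Wnt6 and Sfrp2, both lower at day 28, beside 19.2% of probes. Arrays of the days did not overlap for 0 of 9 genes, beside 3.73% of probes. Wnt6 differed by -0.27 (SE 0.10, limma adjusted p = 0.194) and Sfrp2 by -0.31 (SE 0.14, limma adjusted p = 0.254). In the fits that left out 1 array the unadjusted call was lost in 5 of 12 for Wnt6 and 8 of 12 for Sfrp2. Under normexp the Wnt6 difference was -0.15 (limma adjusted p = 0.313), and Sfrp2 also lost its call under quantile normalisation, normexp, no filter on dim probes, the row as a covariate and the series matrix values. The median of the 9 genes was -0.17, against 0.01 over all probes, and 7 of 9 were lower at day 28.

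Single arrays moved the day results. Without LP replicate 6a of day 21, Axin2 differed by -0.40 with the diets averaged (limma adjusted p = 0.213), from -0.29 with all arrays (SE 0.16, limma adjusted p = 0.334). Sfrp2 was then at -0.25 (limma adjusted p = 0.409), and at -0.24 without NP replicate 4f of day 28 (limma adjusted p = 0.344). The Lef1 difference between the days in LP rats turned from 0.67 (SE 0.79, limma adjusted p = 0.825) to -0.51 without LP replicate 6a (limma adjusted p = 0.785). Wnt11 in LP rats went from -0.25 (SE 0.21, limma adjusted p = 0.740) to -0.51 without it (limma adjusted p = 0.619). In NP rats unadjusted calls were gained by Wnt6 without replicate 6a of day 21, by Dkk3 without replicate 5a of day 21, and by Sfrp2 without replicate 6a of day 21, without replicate 6f of day 28 and under normexp. With the diets averaged, Sfrp1 gained one without NP replicate 4a of day 21, and Wnt11 and Axin2 without LP replicate 6a. In LP rats Wnt11 and Axin2 gained one without LP replicate 6a.

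The normexp background correction raised the median of all probes in the NP day comparison from 0.03 to 0.10, and the normexp differences given here are not corrected for that shift. Among probes with an unadjusted p under 0.05, it moved the share that was higher from 48.2 to 66.7% for the diets at day 21, from 24.5 to 43.5% for the diets at day 28, from 61.7 to 75.4% for the days in NP, from 44.1 to 64.1% for the days in LP and from 51.4 to 72.3% for the days over both diets. Among probes with an adjusted p under 0.05 by limma, the share went from 74.1 to 86.2% for the days in NP and from 57.7 to 75.6% over both diets. For the days in LP, normexp gave 6 such probes, 0% of them higher, where the main fit gave 0 probes.

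The wider pathway was followed with a list of 88 other genes, of which 83 had a probe and 71 were tested. Fzd10, Lgr6, Znrf3, Dvl2 and Nkd1 matched no probe, and Wnt3, Wnt3a, Wnt8a, Wnt8b, Fzd5, Rspo2, Rspo4, Dkk1, Dkk4, Kremen2, Notum and Sp5 were too dim to test. With limma 0 of 71 had an adjusted p under 0.05 in any of the 6 comparisons, and 1 had one over both diets without NP replicate 6f of day 28. At an unadjusted p under 0.05, 5 were higher and 1 lower in LP at day 21, and 1 was higher and 3 lower in LP at day 28. That is 8.45 and 5.63% of the list, beside 4.36 and 8.07% of all probes. Between the days 2 were higher and 4 lower at day 28 in NP, 2 higher and 5 lower in LP, and 5 higher and 7 lower over both diets, while 0 were higher and 1, Rnf43, was lower in the change of the diet difference. These are 8.45, 9.86, 16.9 and 1.41% of the list, beside 12.8, 10.1, 19.2 and 2.26% of all probes. Rnf43 was not well above background on LP replicate 7c of day 21 or LP replicates 6f and 7f of day 28. It lost its unadjusted call without LP replicate 6a of day 21 (limma adjusted p = 0.998). The medians of the list were 0.12 at day 21 and 6e-04 at day 28. Without LP replicate 6a the day 21 median was 0.0351, and without NP replicate 4f the day 28 median turned to -0.0455.

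At day 21 the list's lowest p values upward belonged to Ryk, Tcf7l2 and Msx2. Ryk, a Wnt co-receptor, was higher in LP by 0.41 (SE 0.15, limma adjusted p = 0.861), with all LP arrays above all NP arrays. Msx2, a target of the pathway, was higher by 1.17 (SE 0.52, limma adjusted p = 0.861), with overlapping groups, and by 0.76 without LP replicate 6a (limma adjusted p = 1). Tle4, a corepressor, was the only one lower at an unadjusted p under 0.05, at a difference of -0.30 (SE 0.11, limma adjusted p = 0.861). Without LP replicate 6a, 0 of 71 had an unadjusted p under 0.05 at day 21 by limma, and 0 an adjusted p under 0.05. Leaving out LP replicate 7c instead gave 10 higher and 2 lower at an unadjusted p under 0.05.

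At day 28 the receptor Fzd2 was higher in LP by 0.42 (SE 0.16, limma adjusted p = 0.581). The ligand Wnt16 was lower, at -1.12 (SE 0.41, limma adjusted p = 0.581), and its NP arrays ran from -4.34 to -2.32, so that the groups overlapped. It was -0.56 without NP replicate 4f, the highest of these (limma adjusted p = 0.869). Gsk3a and Apc, both parts of the complex that degrades beta-catenin, were lower, at -0.33 and -0.25 (limma adjusted p = 0.581 for both). Without NP replicate 4f of day 28, 0 were higher and 1 lower at an unadjusted p under 0.05, and without NP replicate 6f 7 were higher and 5 lower.

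Between the days the genes named are up to 3 higher and 3 lower with the lowest p in each comparison, most of them shared between comparisons. Frzb, a Wnt-binding inhibitor, was higher at day 28 over both diets by 0.66 (SE 0.16, limma adjusted p = 0.0720) and by 0.97 in LP alone (SE 0.23, limma adjusted p = 0.262). Fzd2 was lower at day 28 over both diets, at -0.43 (SE 0.11, limma adjusted p = 0.0892), and Apc2 likewise at -0.43 (SE 0.11, limma adjusted p = 0.0818). Over both diets Dkkl1 was higher by 0.49 and Csnk1e lower, at -0.225 (limma adjusted p = 0.111 and 0.132). Sost was also higher, with no size given since 2 LP arrays of day 21 were not well above background (limma adjusted p = 0.127). In LP alone Wisp2 was higher by 1.23 and Wnt5b lower, at -0.54 (limma adjusted p = 0.475 and 0.439). Without LP replicate 6a of day 21, Wnt5b was at -0.32 and lost its unadjusted call (limma adjusted p = 0.767). Sfrp4, of the Sfrp family, was lower at day 28 in NP, at -1.07 (SE 0.38, limma adjusted p = 0.280). Its difference was -0.72 without NP replicate 4f of day 28, where the unadjusted call was lost (limma adjusted p = 0.444).

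The remaining marker lists bear on what else the tissue held. Fibroblast markers were higher in LP for 5 of 7 genes at day 21 and 3 of 7 at day 28, with summed levels of 286.5 to 438, and adipocyte markers for 2 of 6 and 5 of 6, with summed levels of 127 to 209. Macrophage markers were higher for 1 of 4 and 3 of 4, and Schwann cell markers for 1 of 4 on both days. Skeletal muscle markers were higher for 0 of 6 and 2 of 6, with summed levels from 0.651 to 75.1, both ends in LP arrays of day 21. Skin epidermis markers were higher for 3 of 4 tested genes and 2 of 4, with all 5 above background on 1 array, and liver markers for 1 of 5 and 3 of 5, with all 5 above background on 10 arrays. Of the 9 Wnt genes, Wnt4 and Lef1 alone had an r over 0.9 with any list, each with 2.

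Promoters from RefSeq (GRCr8, around the transcription start) were searched for 4 short motifs on both strands, chosen after the expression values were seen. They matched 8 of the 10 genes, Wnt2 included. CTTTGAT was present in 1 of 8, Axin2, and in 3.63% of 33469 promoters, and CTTTGA, which it contains, in 1 of 8 and 16.1%. CTTTG, contained in both, was present in 2 of 8, Axin2 and Lef1, and in 53.8%, and CACCTG in 2 of 8, Lef1 and Wnt4, and in 18.8%. A match describes the letters of the window and is not a site.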

How the data were processed

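Per the file headers, the deposited scanner files hold the intensity of each spot, read from 1-colour Agilent arrays by the authors with Agilent Feature Extraction 10.7.3.1, and gProcessedSignal is the background-subtracted intensity. The deposited series matrix holds ratio values, each array's processed signal divided by its median spot, as found by setting it against the scanner files, and was an alternative only. From 58717 gene spots per array (4259 control spots left out), spots flagged as outliers were dropped, spots of a probe were averaged, and log2 signal minus the array's 75th percentile was taken (R 4.3.3, data.table version 1.17.8). Of 30367 probes, 23209 were tested, those well above background (in a share of 0.5 or more of their spots) on 3 or more arrays, using limma 3.58.1 and 1 fit over 4 groups of 3, two-sided, with 9.95 total degrees of freedom and Benjamini-Hochberg adjustment. The fit was tested on simulated data with independent noise, which held no outlying array and no effect of the row on the slide. With 3 against 3, an exact permutation test cannot go below p = 0.1, so none was used. The number of arrays limits the precision.

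A gene is described by its probe well above background on most arrays, then by the brightest. All members are named; of the pathway list, at most 3 higher and 3 lower per comparison with the lowest p. Gene names are those in the files, with 17998 probes matched to RefSeq. Members and lists were chosen with earlier results of these data known. Probe positions are those of the files (rn4); whether a probe lies in an exon or UTR was not analysed here. Alternatives covered the normalisation, background, filters, moderation, replicate number, row on the slide, source of values, probe and leaving out each array.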

Additional observations from a re-analysis of the deposited data

Results flagged for a closer look

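In 3 sets of 6 arrays, those of 1 day with both diets together, 1 array was far from the rest, judged by its gap to the nearest array over the whole range. This grouping was chosen after the low Lef1 level of LP replicate 6a had been seen, 18 such sets were looked at over the 9 genes, and chance gives about 1 in 20. Lef1 on LP replicate 6a of day 21 had a ratio of 0.857, at -5.17 against -1.83 for the nearest array. Wnt6 on NP replicate 4f of day 28 had a ratio of 0.688, at -4.41 against -4.62 for the nearest. Wnt4 on NP replicate 4f of day 28 had a ratio of 0.63, at -4.21 against -2.68 for the nearest. The causes were not tested.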

How the results depend on the processing

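Over 24 alternative settings, 12 of them leaving out 1 array, 1102 of 1209 values for single Wnt genes kept their direction and their side of an unadjusted p of 0.05, while 23 passed it newly, 36 no longer did and 48 turned. All differences rest on 3 arrays per group, 2 where an array was left out, and causes were not tested. The adjusted p of Wnt4 at day 28 ran from 0.317 to 0.946 and that of Wnt11 from 0.350 to 0.946.

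Turned values, quantile normalisation: Wnt5a -0.0058 at day 28. Normexp with offset 50 gave Axin2 0.0201 for the diets at day 21, Sfrp1 0 at day 28, Wnt4 -0.0343 for the days in LP and Dkk3 -0.0317 over both diets, beside medians of all probes of 0.048, -2e-04, 0.0467 and 0.0761. The row on the slide gave Axin2 0.0721 and Sfrp1 -0.0705 at day 21.

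Leaving out 1 array, the diet differences that turned ran at day 21 from -0.3235 to 0.103 (Wnt5a), -0.0336 to 0.2577 (Wnt6), -0.2417 to 0.1619 (Axin2) and -0.0863 to 0.3476 (Sfrp1), and at day 28 from -0.2445 to 0.2105 (Wnt5a) and -0.296 to 0.0117 (Sfrp1). For the days in NP they ran from -0.4282 to 0.38 (Wnt4), -0.4152 to 0.0398 (Wnt5a), -0.1324 to 0.0437 (Wnt11), -0.019 to 0.338 (Lef1) and -0.3119 to 0.122 (Sfrp1). In LP they ran from -0.3707 to 0.4766 (Wnt4), -0.3077 to 0.1188 (Wnt5a), -0.5064 to 4e-04 (Wnt11) and -0.5053 to 1.3633 (Lef1), and over both diets from -0.2576 to 0.223 (Wnt4), -0.169 to 0.7653 (Lef1) and -0.0352 to 0.1172 (Dkk3). For the change of the diet difference they ran from -0.314 to 0.621 (Wnt4), -0.1662 to 0.3309 (Wnt5a), -0.4747 to 0.0321 (Wnt11) and -0.6727 to 1.1959 (Lef1).

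The number of Wnt genes with an unadjusted p under 0.05 by limma was, over both diets, 1 under quantile normalisation, without the filter, with the row and with the series matrix table, and 0 under normexp. It was 1 under normexp for the diets at day 21 and for the days in NP, and 0 with the row for the diets at day 28. Leaving out 1 array it ran from 0 to 2 for the diets at day 21 and 0 to 3 at day 28, from 0 to 2 for the days in NP, 0 to 3 in LP, 0 to 3 over both diets and 0 to 1 for the change.

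Probes with an adjusted p under 0.05 by limma numbered 58 for the days in NP, and 0 without the filter, 88 with probes above background on all arrays, 0 with only the groups compared, 91 with intensity trend and robust estimation together, 36 with the row and 102 with the series matrix table. For the days in LP they numbered 0 (2346 at an unadjusted p under 0.05), 6 under normexp and 1 with only the groups compared, and over both diets 421, 271 under normexp and 217 without the filter. Leaving out 1 array gave 0 to 31, 0 to 4 and 99 to 398, and 0 to 0 for the diets at either day and for the change.

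The labels share numbers between groups. Same-numbered arrays of 1 diet on the 2 days had correlated deviations over 0.1 in 4 of 6 pairs (-0.0553 to 0.379), those of the other day and diet in 3 of 4 and those of 1 day in 1 of 4. For arrays of unlike number this was 0 of 12, 2 of 14 and 2 of 14, and as not every same-numbered pair was over 0.1 the block was kept as an alternative, while these values do not exclude pairing: within a diet 10 of 12 arrays correlated best with the array of their own number on the other day, a hint from the data and not the design. With the number as a replicate block, Wnt4 was 1.76 at day 28 (limma adjusted p = 0.637), Wnt5a -0.1766, 1 Wnt gene had an unadjusted p under 0.05 at day 21 (Wnt4, limma adjusted p = 0.381) and 1 over both diets (Wnt6, with Sfrp2 no longer counted), and the adjusted counts were 0 for the days in NP and 209 over both diets. With the block within diet the last 3 were 1 (again without Sfrp2), 0 and 21. Of the 71 pathway genes, the number block gave 15 higher and 3 lower at day 21 at an unadjusted p under 0.05, and 1 with an adjusted p under 0.05 over both diets by limma.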
